A study of Homo sapiens with 52 samples.

Results

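The genes described here are 37 members of the unfolded protein response and the amino acid stress response, given as a list and read as 2 subgroups. The first subgroup, called the ER chaperone genes, has 20 members: the stress sensors ATF6, ERN1 and EIF2AK3, the transcription factor XBP1, chaperones, disulfide isomerases, co-chaperones, degradation factors and 2 secreted ER proteins. The second, called the ATF4-type genes, has 17 members: transcription factors, feedback genes, enzymes of serine, asparagine and one-carbon metabolism, amino acid carriers and an alanyl-tRNA synthetase. All 37 of the 43289 gene symbols in the table had values in both sets of libraries, and all 37 passed the filter on low values in both.

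The unfolded protein response is set off when unfolded proteins gather in the endoplasmic reticulum (ER), the compartment where secreted and membrane proteins fold. The sensors IRE1 (gene ERN1) and ATF6 raise transcription of chaperones and of the machinery that removes misfolded proteins, partly through the spliced form of XBP1. The sensor PERK (gene EIF2AK3) shares with the amino acid sensor GCN2 a pathway that slows translation and raises the protein level of ATF4, which turns on genes for amino acid synthesis, uptake and tRNA charging. ATF4 is controlled mainly through its translation and XBP1 through splicing, and neither step can be read from the transcript levels of whole genes. Endothelial cells secrete large amounts of protein and meet inflammatory cytokines directly, so both branches have been studied in vessel walls.

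RNA-seq of poly-A RNA was done on 52 libraries in a study that linked coronary artery disease genes to endothelial programs. TeloHAEC is a telomerase-immortalised line of human aortic endothelium. Eahy926 came from fusing endothelial cells of the umbilical vein with a carcinoma line of the lung. The parental lines had 3 libraries in each of 8 groups. TeloHAEC was untreated, given 10 ng/ml IL-1β, given 10 ng/ml TNF-α, or kept in VEGF-free medium. Eahy926 was untreated, given either cytokine at the same dose, or given added VEGF. Every treatment, with or without a cytokine, lasted 24 h. The TeloHAEC libraries in VEGF-free medium carry VEGF in their titles, while their treatment label gives a medium without it, and the treatment label was followed. Another 2 untreated libraries of each line, numbered 0.1 and 0.2 in the titles, were kept apart. The other 24 libraries came from TeloHAEC with an inducible repressor, KRAB-dCas9-BFP, which had been sorted for high BFP, transduced with 1 guide each, selected with blasticidin and given 2 µg/ml doxycycline for 5 days. They cover 10 target genes with 2 guides each and 4 non-targeting guides, so all knockdown and control cells of this set carried the repressor and received the drug. Nothing in the labels says that replicates came from separate cultures, so p-values measure the spread between libraries, which may be technical.

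Levels are given as TPM, a unit scaled for transcript length and for the library total, and so allow genes to be compared with each other. Depth cannot be read from TPM. In bulk RNA fewer cells of a kind and less RNA per cell cannot be told apart. Of the members, ATF4, ASNS, PSAT1, MTHFD2, SLC7A5, PSPH, XBP1 and AARS have copies named as pseudogenes in GENCODE 29, and how reads that match both were shared out is not given in the sources used here, so their levels are less certain. Each line was grown in its own medium, TeloHAEC in a VEGF endothelial medium and Eahy926 in DMEM with serum, so line and medium cannot be told apart. Endothelial markers were present in both lines, with CDH5 at 803 to 911 TPM in the 5 untreated TeloHAEC libraries and 167 to 273 TPM in the 5 of Eahy926, but in Eahy926 CLDN5 was listed at 0 and KDR was at 1.77 to 6.14 TPM. Of the 6 epithelial markers KRT7 was at 1332 to 2744 TPM in untreated Eahy926 and 3.43 to 120.1 TPM in untreated TeloHAEC, and KRT19 was at 1313 to 1382 TPM in TeloHAEC and at most 0.497 TPM in Eahy926, and their part in the line differences was not tested. Of the 5 leukocyte markers PTPRC and CD3E were at or near 0 in the untreated libraries of both lines. The others were not all absent. CD68 was at 151.8 to 183.5 TPM in Eahy926 and 51.74 to 87.64 TPM in TeloHAEC. LYZ was at 3.138 to 4.805 TPM in Eahy926 and at most 0.1781 TPM in TeloHAEC, and CD14 at most 0.3687 and 2.708 TPM. The fibroblast markers DCN and LUM were listed at 0 in the untreated libraries of both lines. The untreated libraries 0.1 and 0.2 stood apart from the other controls of their line. Both lay above or both below all 3 other controls for 13 of the 20 ER chaperone genes and 12 of the 17 ATF4-type genes in TeloHAEC, beside 68.8% of all 13542 genes tested. In Eahy926 the counts were 14 and 13, beside 57.7% of all genes.

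The promoters of the 2 subgroups held different response element letters. Promoter sequences from RefSeq (GRCh38.p14), reaching from 250 bases before to 50 bases after the transcript start, were matched for 35 of the 37 members. PSPH and SHMT2 were not matched. The ER stress response element (ERSE, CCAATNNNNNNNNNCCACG) was found on either strand in 6 of the 20 ER chaperone genes, and its variant ERSE-II (ATTGGNCCACG) in 3 others. Either motif was thus in 9 of 20 ER chaperone genes and in 0 of 15 ATF4-type genes, against 0.131% of the 35116 promoters in the table. A gene was counted if any of its RefSeq entries held a match, while the share is over single promoters. These counts and the share are thus not like for like, as 10 members had more than 1 entry. The PDIA6 match lies only in entry 2 of that gene, and the XBP1 match only in entry 1. The sites are shown to give the letters of each match. The rest of the 20 ER chaperone genes had neither motif in this window, so these letters do not define the subgroup. Each is read 5′ to 3′ on the strand of the motif, with the fixed letters in capitals. The 2 HYOU1 matches have the same letters and are printed once.

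XBP1 (ERSE): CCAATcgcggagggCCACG
HSPA5 (ERSE): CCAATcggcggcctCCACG
HSP90B1 (ERSE): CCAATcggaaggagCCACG
HSP90B1 (ERSE): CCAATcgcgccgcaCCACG
CALR (ERSE): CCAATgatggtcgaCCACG
PDIA6 (ERSE): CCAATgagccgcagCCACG
CRELD2 (ERSE): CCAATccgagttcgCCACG
HYOU1 (ERSE-II): ATTGGaCCACG
SDF2L1 (ERSE-II): ATTGGtCCACG
HERPUD1 (ERSE-II): ATTGGgCCACG

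The core of the amino acid response element bound by ATF4 dimers (CARE, TGATGNAA, searched on both strands) was found in 6 of 15 ATF4-type genes, in 1 of 20 ER chaperone genes, HERPUD1, and in 3.62% of all promoters. Genes were again counted by any entry, and the share by single promoters. ATF3, ASNS and SLC3A2 matched only in entry 1 of each gene. CARE letters do not overlap those of ERSE or ERSE-II in any of these matches. A match is a description of the letters in the window and not evidence of binding. The matches in the ATF4-type genes were as follows.

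ATF3 (CARE): TGATGgAA
CHAC1 (CARE): TGATGcAA
ASNS (CARE): TGATGaAA
SLC3A2 (CARE): TGATGtAA
SLC7A1 (CARE): TGATGaAA
AARS (CARE): TGATGcAA

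The 250 bases upstream of the start are given for 4 genes whose levels are described in detail, with capitals at the fixed letters of each match as they lie on the gene's strand. HSPA5 encodes the chaperone BiP, at chr9:125241344-125241593 on the minus strand, and has 1 ERSE from 66 to 48 bases before the start. HYOU1 encodes a large ER chaperone, at chr11:119057206-119057455 on the minus strand, and has 2 ERSE-II matches in the reverse direction. CHAC1, a glutathione-degrading enzyme, lies at chr15:40953221-40953470 on the plus strand and has a reversed CARE match. ASNS, asparagine synthetase, lies at chr7:97872409-97872658 on the minus strand and has a forward CARE match 68 to 61 bases before the start.

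HSPA5: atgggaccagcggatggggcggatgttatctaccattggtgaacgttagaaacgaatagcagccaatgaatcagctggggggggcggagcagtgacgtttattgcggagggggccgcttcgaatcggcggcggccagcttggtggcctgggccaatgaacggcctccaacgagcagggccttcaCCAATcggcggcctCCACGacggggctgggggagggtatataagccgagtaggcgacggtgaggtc
HYOU1: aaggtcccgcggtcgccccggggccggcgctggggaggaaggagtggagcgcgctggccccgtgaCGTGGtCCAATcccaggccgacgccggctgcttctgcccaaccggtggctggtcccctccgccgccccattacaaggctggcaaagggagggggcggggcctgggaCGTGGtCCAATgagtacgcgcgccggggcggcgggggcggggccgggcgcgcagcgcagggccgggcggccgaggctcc
CHAC1: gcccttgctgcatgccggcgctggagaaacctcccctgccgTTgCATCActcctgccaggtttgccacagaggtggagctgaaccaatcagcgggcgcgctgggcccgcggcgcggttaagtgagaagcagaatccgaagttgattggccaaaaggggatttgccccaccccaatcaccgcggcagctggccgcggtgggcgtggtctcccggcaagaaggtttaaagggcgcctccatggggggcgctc
ASNS: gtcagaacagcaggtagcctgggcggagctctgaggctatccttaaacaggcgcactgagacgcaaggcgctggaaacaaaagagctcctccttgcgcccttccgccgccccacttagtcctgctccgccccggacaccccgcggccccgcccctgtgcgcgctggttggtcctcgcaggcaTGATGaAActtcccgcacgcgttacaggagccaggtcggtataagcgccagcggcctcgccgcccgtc

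**Figure D1:**
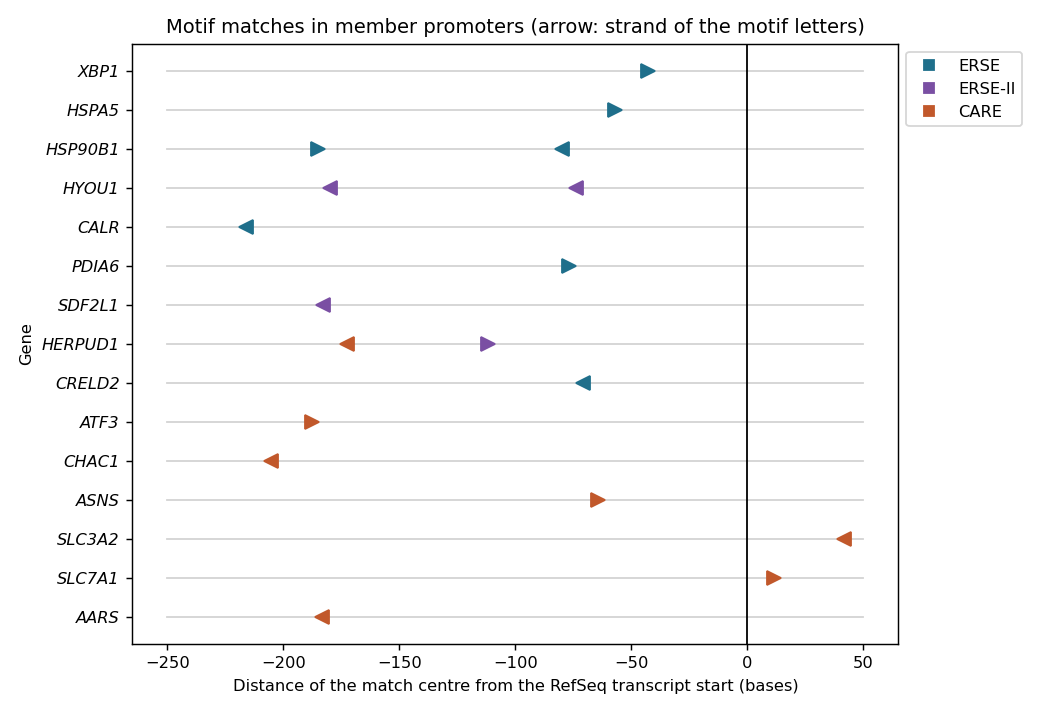
Position of each motif match in the promoters of the 15 members that had one, as distance of the match centre from the RefSeq transcript start in bases, with arrows for the strand of the motif letters. ERSE and ERSE-II matches lie in ER chaperone genes, and CARE matches in 6 ATF4-type genes and HERPUD1.

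The first question was how the untreated lines differ. The ER chaperone genes were higher in TeloHAEC, and most enzymes and carriers of amino acid metabolism were higher in Eahy926. Of the 20 ER chaperone genes 14 were higher in TeloHAEC and 0 lower, beside 36.3% of all 13542 genes tested called higher and 39.9% called lower. Of the 17 ATF4-type genes 5 were higher and 11 lower. The median log2 difference was 0.45 for the ER chaperone genes and fell below 0, at -0.52, for the ATF4-type genes, beside -0.05 for all genes. A call here and below means a limma adjusted p under 0.05 over all genes of the block, and log2 values are differences of log2(TPM + 1), which understates the change of low genes.

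Among the ER co-chaperones, DNAJC3, an inhibitor of PERK, was at 65.05, 67.7 and 68.0 TPM in TeloHAEC and at 22.1, 17.2 and 23.7 TPM in Eahy926. That is a log2 difference of 1.64 ± 0.09 (SE, n = 3 a group), with limma adjusted p = 7.56e-14. SDF2L1, which works with BiP, was 1.34 ± 0.12 higher on the same scale, and the disulfide isomerase PDIA6 1.00 ± 0.04 higher. HYOU1 was at 224, 227 and 242 TPM in TeloHAEC and 114, 90.6 and 116 TPM in Eahy926, a log2 difference of 1.11 ± 0.07 (limma adjusted p = 6.03e-13). EIF2AK3 was the one sensor called, at 0.85 ± 0.09. The groups were apart for 14 of the 20 ER chaperone genes, these 5 among them, and for 17 of the 17 ATF4-type genes. The share of all genes with groups apart was not worked out. The most abundant member was CALR, the calcium-binding chaperone calreticulin, with a mean of 2079 TPM in TeloHAEC and 1349 TPM in Eahy926. The least abundant ER chaperone gene was ERN1, at 2.87 and 4.14 TPM.

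PHGDH, the first enzyme of serine synthesis, showed the largest difference of the 37 members. It was at 18.7, 23.0 and 18.95 TPM in TeloHAEC and at 128, 145 and 134 TPM in Eahy926, a log2 difference of -2.69 ± 0.11 (limma adjusted p = 1.05e-15). Every Eahy926 library was thus far above every TeloHAEC library. The one-carbon enzymes SHMT2 and MTHFD2 were lower in TeloHAEC at -0.96 ± 0.04 and -0.94 ± 0.05, the transcription factor CEBPB at -1.03 ± 0.10, and SLC3A2, the heavy chain of several amino acid carriers, at -0.82 ± 0.05. Members of the same subgroup went the other way. SLC7A1, a carrier of arginine and lysine, was at 61.4 to 63.1 TPM in TeloHAEC and 18.75 to 26.8 TPM in Eahy926, with a log2 difference of 1.39 ± 0.08. TRIB3, a pseudokinase that feeds back on ATF4, was 1.38 ± 0.05 higher in TeloHAEC, CHAC1 1.09 ± 0.23, ATF4 itself 0.29 ± 0.04, and PPP1R15A, which reverses the translation block, 0.24 ± 0.05. All 15 of these named calls held when any 1 library was left out.

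Other genes of the 2 pathways, from lists that hold no member, were split as well. Of 28 other ER genes 17 were higher in TeloHAEC and 6 lower, with WFS1, a membrane protein of the ER, at 2.34 ± 0.07. Of 33 other ATF4-linked genes 9 were higher and 16 lower, and the largest differences were those of VLDLR, a lipoprotein receptor, at 4.79 ± 0.08 and DDIT4, an inhibitor of mTORC1, at 4.61 ± 0.16.

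**Figure D2:**
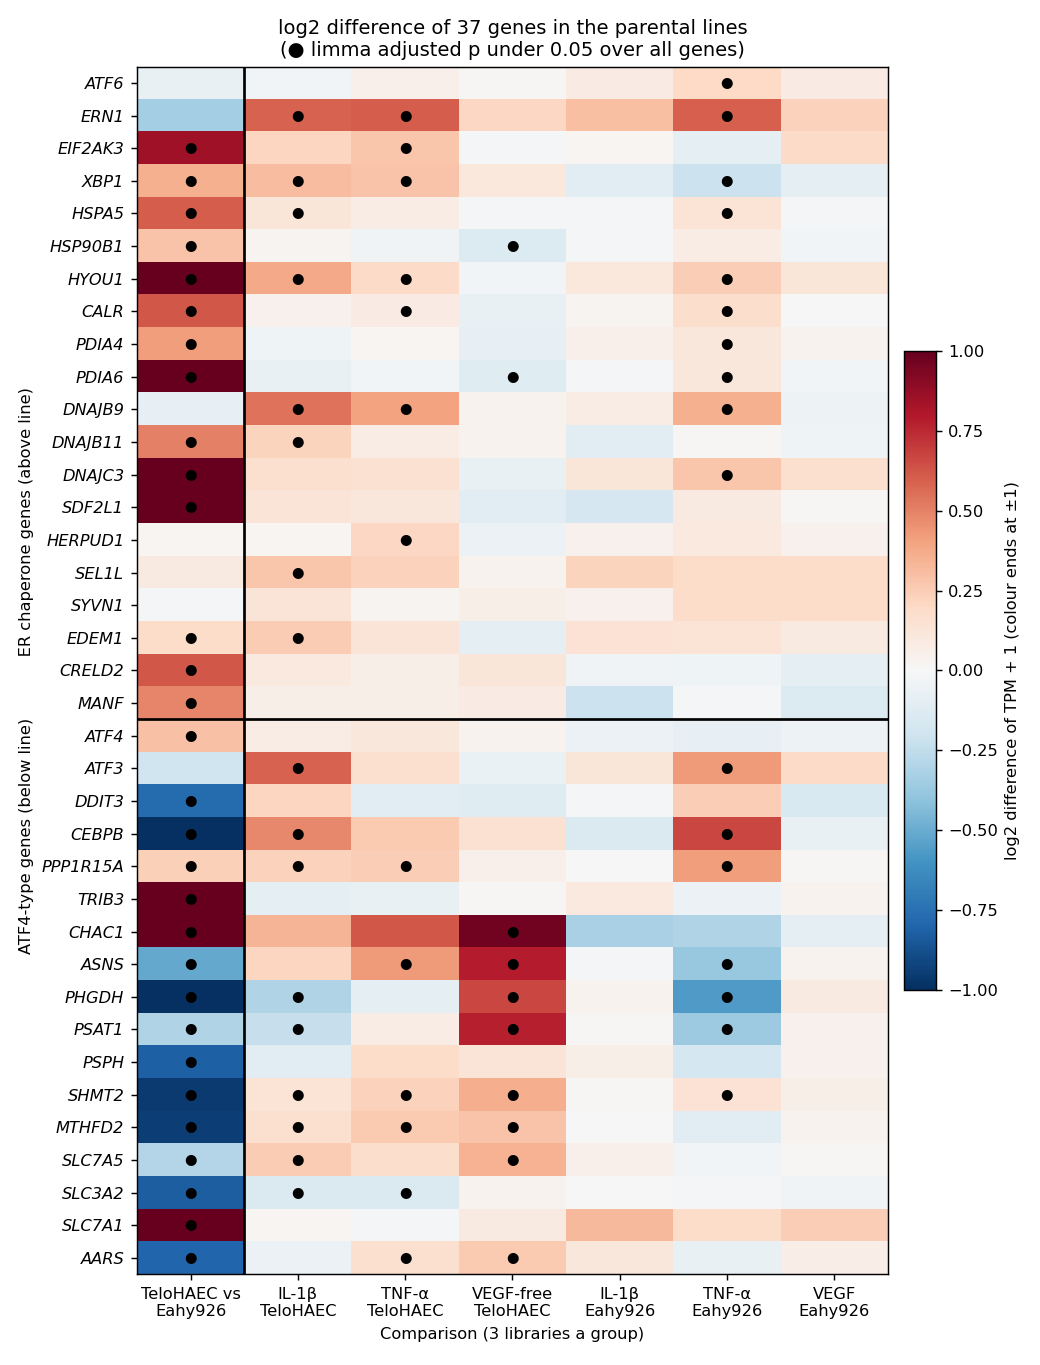
Heat map of log2 differences (TPM + 1) for the 37 genes in rows and 7 comparisons of parental libraries in columns, with 3 libraries a group. The colour ends at 1 and -1, and dots mark limma adjusted p under 0.05. The first column splits by subgroup, the VEGF-free column has its positive dots among the ATF4-type genes, and the IL-1β and VEGF columns of Eahy926 have no dots.

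VEGF-free medium was compared with the usual medium in TeloHAEC. PHGDH, PSAT1, ASNS, SHMT2 and MTHFD2, enzymes of serine, asparagine and one-carbon metabolism, rose, PSPH was not called, and no ER chaperone gene rose. Of the 17 ATF4-type genes 8 rose and 0 fell, beside 9.10% of all genes higher and 4.02% lower. Of the 20 ER chaperone genes 0 rose and 2 fell. The medians were 0.15 and -0.01, beside 0.03 for all genes.

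ASNS was at 36.1, 41.6 and 36.9 TPM in the usual medium and at 66.6, 73.5 and 60.1 TPM without VEGF. The log2 change was 0.79 ± 0.09 (limma adjusted p = 3.77e-06), a rise of 74.8% in mean TPM. PSAT1, the second enzyme of serine synthesis, went from 84.0, 102 and 88.4 TPM to 155, 162 and 152 TPM, a log2 change of 0.77 ± 0.07 with limma adjusted p = 3.51e-07. The 3 libraries without VEGF lay well above the 3 controls for both genes, and above all IL-1β and TNF-α libraries of the line. PHGDH went from 18.7, 23.0 and 18.95 TPM to 37.2, 31.15 and 29.7 TPM, a change of 0.67 ± 0.11, and so stayed far below its level in Eahy926. CHAC1 was low but clearly separated, at 5.20, 8.40 and 5.14 TPM before and 12.7, 13.7 and 12.2 TPM after, a change of 0.96 ± 0.23 (limma adjusted p = 0.00681). SHMT2 was nearly constant in the controls, at 167, 167 and 168 TPM, and reached 222, 215 and 210 TPM, a change of 0.37 ± 0.04. The other called members were SLC7A5, the main carrier of leucine, MTHFD2 and AARS, with changes of 0.26 to 0.35.

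The transcription factors of the subgroup were not among the 8. ATF4 was at 415 to 446.5 TPM in the controls and 421 to 465 TPM without VEGF, with overlapping groups. DDIT3, the factor CHOP, and ATF3 gave log2 differences of -0.12 and -0.06 that were not called. PSPH, the last enzyme of serine synthesis, was at 19.1 to 20.2 TPM in the controls and 19.98 to 22.9 TPM without VEGF, a difference that was not called. The calls of CHAC1, ASNS, PSAT1, PHGDH and SHMT2 held when any 1 library was left out, with the largest limma adjusted p at 0.0411 for CHAC1.

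The 2 ER genes that fell were HSP90B1, the chaperone GRP94, at -0.13 ± 0.04, and PDIA6, at -0.12 ± 0.04 (limma adjusted p = 0.0152 and 0.0451). Mean TPM fell by 8.80% and 7.85%, and both calls were lost when 1 library was left out. The PDIA6 call was also lost without the filter on low values (limma adjusted p = 0.0575) and with all 5 untreated libraries (0.0514). HSP90B1 lost its call without control 2, control 3, VEGF-free 1 or VEGF-free 2 (limma adjusted p up to 0.0886), and PDIA6 without any library but VEGF-free 3 (up to 0.201). Of 33 other ATF4-linked genes 11 rose and 2 fell. SLC1A4, a carrier of serine and alanine, rose by 0.54 ± 0.10, whereas GDF15, a stress cytokine, was at -0.49 ± 0.06 and VLDLR at -0.49 ± 0.08. Of 28 other ER genes 0 rose and 4 fell. Of 8 immediate early genes, which respond to handling, 0 rose and 3 fell. The summed level of the 6 epithelial markers was 1869 to 1953 TPM without VEGF, beside 2047 to 2134 TPM in the controls. KRT19 was lower, at 1057 to 1127 TPM beside 1313 to 1382 TPM, and KRT18 higher, at 723.8 to 757.6 TPM beside 640.4 to 689.6 TPM. The part of the immediate early genes or of these markers in the result was not tested. The share of called genes that were higher was 69.3%, or 50.7% after rescaling by the median of ratios, which left the 8 ATF4-type rises and gave 3 falls among the ER chaperone genes.

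**Figure D3:**
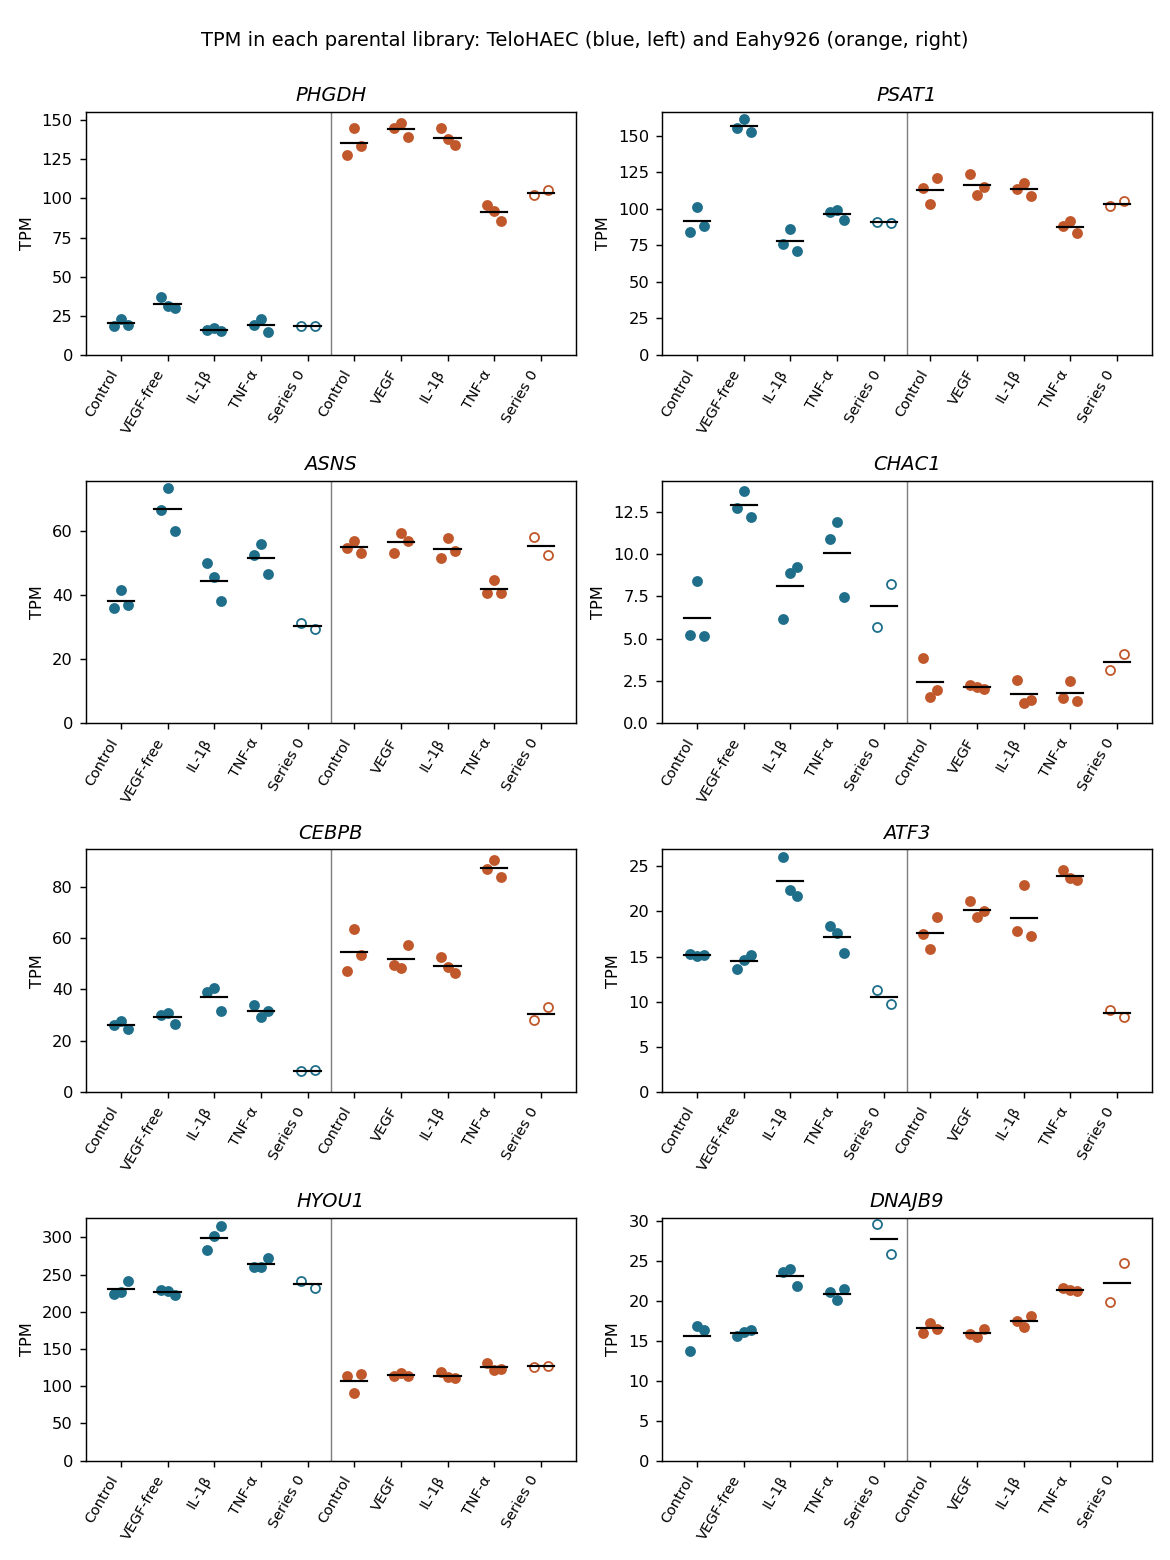
TPM of 8 members in each parental library, TeloHAEC in blue and Eahy926 in orange, with a black bar at the mean of each group and open circles for the untreated libraries 0.1 and 0.2 (Series 0). PSAT1 and ASNS are highest in TeloHAEC without VEGF, where all 3 libraries lie above the other TeloHAEC groups, and PHGDH is at 85.85 TPM or more in every Eahy926 library.

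IL-1β in TeloHAEC raised the sensor ERN1, chaperones and co-chaperones such as HYOU1 and DNAJB9, and the transcription factors XBP1, ATF3 and CEBPB, with small changes. Of the 20 ER chaperone genes 8 rose and 0 fell, beside 9.92% of all genes higher and 21.2% lower. Of the 17 ATF4-type genes 6 rose and 3 fell. The medians were 0.13 for each subgroup, beside -0.07 for all genes. Of all called genes 31.8% were higher, or 47.9% after rescaling by the median of ratios. On that scale 13 ER chaperone genes and 8 ATF4-type genes were higher and 0 of either lower. The summed level of the 6 epithelial markers was 2047 to 2134 TPM in the controls and 1061 to 1100 TPM with IL-1β, with KRT19 going from 1313 to 1382 TPM to 677 to 713 TPM and KRT18 from 640 to 690 TPM to 341 to 374 TPM. The defining epithelial genes EPCAM and CDH1 were at or near 0 in both groups. The 5 leukocyte markers summed to 80.53 to 87.66 TPM in the controls and 71.52 to 76.98 TPM with IL-1β. Almost all of this sum was CD68, at 79.76 to 87.64 TPM and then 70.87 to 76.62 TPM. The part of these markers in the result was not tested.

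DNAJB9, a co-chaperone that binds IRE1, was at 13.7, 16.9 and 16.3 TPM in the controls and at 23.6, 24.0 and 21.8 TPM with IL-1β. The log2 change was 0.54 ± 0.07 (limma adjusted p = 1.17e-06). The untreated libraries 0.1 and 0.2 were at 29.6 and 25.9 TPM, above all treated libraries, and with all 5 untreated libraries the change was 0.23 and the call was lost (limma adjusted p = 0.295). HYOU1 rose from 224 to 242 TPM to 283 to 315 TPM, a change of 0.38 ± 0.07, and XBP1 from 119.5 to 131 TPM to 151 to 157 TPM, a change of 0.31 ± 0.05. The groups were apart for 12 of the 20 ER chaperone genes, HYOU1 and XBP1 among them. The share of all genes with groups apart was not worked out. For HYOU1 and XBP1 libraries 0.1 and 0.2 lay below every treated library. ERN1 went from 2.67 to 2.99 TPM to 4.56 to 5.06 TPM (0.59 ± 0.19), and SEL1L, part of the ER degradation complex, from 44.0 to 45.3 TPM to 51.6 to 57.1 TPM (0.28 ± 0.10). ERN1 lost its call without control 2 or IL-1β 2 (limma adjusted p up to 0.0638) and with all 5 controls (0.0565), and SEL1L without any library but IL-1β 3 (up to 0.109), without the filter (0.0518) and with all 5 controls (0.468). HSPA5, DNAJB11 and EDEM1 were also called, at 0.12 to 0.26.

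The ATF4-type genes that rose most with IL-1β were ATF3 and CEBPB, transcription factors that also respond to inflammation. ATF3 was at 15.3, 15.1 and 15.2 TPM in the controls and 26.0, 22.4 and 21.7 TPM with IL-1β, a change of 0.59 ± 0.09 (limma adjusted p = 4.23e-05). CEBPB was at 24.5 to 27.6 TPM and then 31.6 to 40.6 TPM, a change of 0.48 ± 0.10. Libraries 0.1 and 0.2 were lower than both groups for CEBPB, at 8.26 and 8.39 TPM, a gap larger than the response. PPP1R15A rose by 0.23 ± 0.05, SLC7A5 by 0.25 ± 0.09, MTHFD2 by 0.16 ± 0.05, and SHMT2, the smallest of the 6 rises, was called too. PHGDH fell by 0.30 on the log2 scale (SE 0.11), PSAT1 by 0.23 (SE 0.07) and SLC3A2 by 0.14 (SE 0.05). PSAT1 and MTHFD2 had overlapping groups. These 3 falls were not called after rescaling (limma adjusted p from 0.0722 to 0.391). PHGDH and SLC7A5 were not called without the filter on low values (0.0762 and 0.0605), nor PHGDH with all 5 untreated libraries (0.0886). Each of these 3, and SLC7A5 and MTHFD2, lost its call when 1 library was left out. PHGDH and PSAT1 lost it without control 2, IL-1β 1 or IL-1β 3 (limma adjusted p up to 0.225 and 0.150), and SLC3A2 without control 1 or IL-1β 1 (up to 0.0717). SLC7A5 lost it without control 2, control 3, IL-1β 1 or IL-1β 2 (up to 0.208), and MTHFD2 without control 1, control 3, IL-1β 1 or IL-1β 2 (up to 0.185). Of 28 other ER genes 12 rose and 1 fell, with TXNDC5, a disulfide isomerase, at 0.68 ± 0.14 and WFS1 at -0.52 ± 0.07. Of 33 other ATF4-linked genes 10 rose and 3 fell, with STC2, a secreted glycoprotein, at 0.80 ± 0.06. Without IL-1β 1, 11 members were called in place of 17.

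TNF-α in TeloHAEC gave 7 rises and 0 falls among the ER chaperone genes, beside 8.27% of all genes higher and 9.95% lower. Of the ATF4-type genes 5 rose and 1 fell. The medians were 0.10 and 0.16, beside -0.02 for all genes. The summed epithelial markers were at 1483 to 1572 TPM and the leukocyte markers, almost all CD68, at 75.71 to 78.3 TPM, both below the controls. KRT7 went the other way, at 6.809 to 8.521 TPM beside 3.431 to 4.454 TPM. The part of these markers in the result was not tested. XBP1 was at 148 to 155 TPM, a change of 0.28 ± 0.05 from the controls (limma adjusted p = 0.000113). DNAJB9 was at 21.0, 20.04 and 21.5 TPM, a change of 0.40 ± 0.07, which was again not called with all 5 untreated libraries (0.08, limma adjusted p = 0.769). ERN1 rose by 0.61 ± 0.19, EIF2AK3 by 0.28 ± 0.09 and HERPUD1, an ER degradation factor, by 0.21 ± 0.06. These 3 calls, and that of AARS among the ATF4-type genes, were lost with all 5 untreated libraries (limma adjusted p from 0.0696 to 0.454). HERPUD1 also lost its call without control 2 (0.0775), and ERN1 and EIF2AK3 without control 1, control 2, TNF-α 1 or TNF-α 3 (up to 0.0923 and 0.171). HYOU1 and CALR were also called, and the change of CALR was 0.08 ± 0.03.

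ASNS had the largest called change of an ATF4-type gene with TNF-α. It was at 52.6, 56.0 and 46.6 TPM, above all 3 controls, a change of 0.43 ± 0.09 (limma adjusted p = 0.00121). MTHFD2 rose by 0.26 ± 0.05, PPP1R15A by 0.25 ± 0.05, SHMT2 by 0.23 ± 0.04 and AARS by 0.16 ± 0.05, while SLC3A2 was at -0.15 ± 0.05. CHAC1 had a larger difference that was not called, 0.62 ± 0.23, with libraries at 7.44 to 11.9 TPM that overlapped the controls. AARS lost its call without control 1, control 3 or TNF-α 2 (limma adjusted p up to 0.0796), and SLC3A2 without any library but TNF-α 2 (up to 0.134) and after rescaling (0.149). In place of 13 members, 7 were called without control 1 and 8 without control 2 or TNF-α 1. Of 33 other ATF4-linked genes 12 rose and 1 fell, with ATF5 at 0.74 ± 0.05 and DDIT4 at -0.79 ± 0.16. Of 28 other ER genes 6 rose and 1 fell, and the gene that fell was again WFS1, at -0.51 ± 0.07. Of 8 immediate early genes 1 rose and 4 fell with IL-1β, and 1 rose and 3 fell with TNF-α. Their part in these results was not tested.

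Comparing the cytokines directly in TeloHAEC, 1 member was higher with IL-1β and 4 were higher with TNF-α, beside 3.52% of all genes higher and 9.22% lower. ATF3 was 0.43 ± 0.09 higher with IL-1β (limma adjusted p = 0.00350). PSAT1 was at 71.2 to 86.0 TPM with IL-1β and 92.1 to 98.9 TPM with TNF-α, a difference of -0.31 ± 0.07, and PSPH differed by -0.29 ± 0.07, AARS by -0.23 ± 0.05 and HERPUD1 by -0.19 ± 0.06. Thus 2 serine synthesis enzymes were called lower with IL-1β than with TNF-α. With libraries 0.1 and 0.2 in the fit, ATF3, AARS and HERPUD1 were not called (limma adjusted p from 0.0839 to 0.389). HERPUD1 lost its call without IL-1β 2, IL-1β 3, TNF-α 2 or TNF-α 3 (limma adjusted p up to 0.119) and after rescaling (-0.14, 0.132), and PSAT1 without IL-1β 3 (0.0532). Of all called genes 27.6% were higher with IL-1β, or 43.7% after rescaling, which called 5 members higher and 3 lower.

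**Figure D4:**
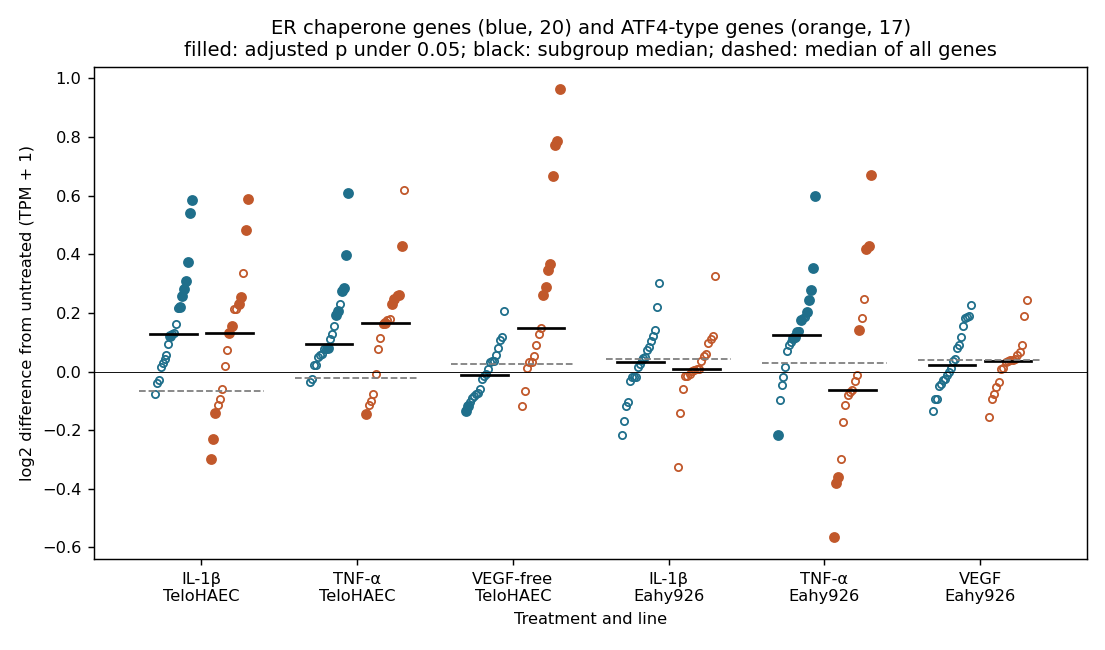
log2 differences of the 20 ER chaperone genes (blue) and 17 ATF4-type genes (orange) for 6 treatments, each point a gene, filled where limma adjusted p was under 0.05. Black bars mark subgroup medians and dashed lines the median of all genes tested. In VEGF-free medium the ATF4-type points reach 0.96 while the ER points lie between -0.13 and 0.21.

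In Eahy926, IL-1β and added VEGF gave no calls among the members. The share of all genes called was 0.00738% in each comparison, 1 gene of 13542. At an unadjusted limma p under 0.05 there were 7 members for IL-1β, beside 1542 of all genes, and 4 for VEGF, beside 1180. The members' log2 differences ranged from -0.33 to 0.33 with IL-1β and from -0.16 to 0.24 with VEGF. Without Eahy926 control 1, 1 member was called for IL-1β.

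TNF-α in Eahy926 raised chaperones such as CALR and HYOU1 and the transcription factors CEBPB and ATF3, and lowered PHGDH, PSAT1 and ASNS, enzymes of serine and asparagine synthesis. Of the 20 ER chaperone genes 9 rose and 1 fell, beside 12.5% of all genes higher and 7.45% lower. Of the 17 ATF4-type genes 4 rose and 3 fell. The medians were 0.13 and -0.06, beside 0.03 for all genes. Among called genes 62.7% were higher, or 49.7% after rescaling, which gave 6 rises and 1 fall among the ER chaperone genes and 3 rises and 6 falls among the ATF4-type genes. The summed epithelial markers went from 4091 to 4153 TPM to 2527 to 2669 TPM, with KRT7 at 2657 to 2744 TPM and then 1654 to 1756 TPM, and KRT8 at 629 to 656 TPM and then 273 to 310 TPM. CDH1 was at or near 0. The summed leukocyte markers went from 156.4 to 186.6 TPM to 200.4 to 224.8 TPM. Almost all of this sum was CD68, at 151.8 to 181.7 TPM and then 197.8 to 219.4 TPM. LYZ had overlapping groups, CD14 was listed at 0 with TNF-α, and PTPRC and CD3E were at or near 0. The part of these markers in the result was not tested.

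PHGDH was at 128, 145 and 134 TPM in the Eahy926 controls and at 95.9, 92.0 and 85.85 TPM with TNF-α. It fell by 0.56 on the log2 scale (SE 0.11, limma adjusted p = 0.000662). ASNS went from 53.2 to 56.9 TPM to 40.6 to 44.65 TPM, a fall of 0.38 (SE 0.09), and PSAT1 from 103 to 121 TPM to 83.2 to 91.5 TPM, a fall of 0.36 (SE 0.07). The groups were apart for 9 of the 17 ATF4-type genes, these 3 among them. The share of all genes with groups apart was not worked out. Libraries 0.1 and 0.2 had PHGDH at 102 and 105 TPM, between the groups. CEBPB went from 47.2 to 63.7 TPM to 84.1 to 90.6 TPM, a rise of 0.67 ± 0.10, with ATF3 at 0.43 ± 0.09, PPP1R15A at 0.42 ± 0.05 and SHMT2 at 0.14 ± 0.04. SHMT2 was not called without TNF-α 2 (limma adjusted p = 0.0810) or after rescaling (0.196).

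Among the ER chaperone genes ERN1 had the largest rise with TNF-α in Eahy926, 0.60 ± 0.19, but its groups overlapped. It was at 4.93, 2.03 and 5.45 TPM in the controls and at 7.58, 6.48 and 5.27 TPM with TNF-α. Control 2 was the lowest of the 3 controls for 14 of the 20 ER chaperone genes, and without it the change of ERN1 was 0.26 (limma adjusted p = 0.167), of DNAJC3 0.15 (0.154) and of ATF6 0.10 (0.209). All 3 are called with it. ERN1 and DNAJC3 also lost their calls without TNF-α 1 or TNF-α 2 (limma adjusted p up to 0.118), ATF6 without TNF-α 1 or TNF-α 3 (up to 0.143), and HYOU1, which rose by 0.24 ± 0.07, without TNF-α 1 (0.0553). DNAJB9 rose from 15.9 to 17.2 TPM to 21.2 to 21.6 TPM, a change of 0.35 ± 0.07, and kept its call without any 1 library. CALR rose by 0.18 ± 0.03, and HSPA5, PDIA4 and PDIA6 were called at 0.11 to 0.13. XBP1 fell by 0.22 (SE 0.05), from 93.0 to 103 TPM to 80.15 to 87.8 TPM. With all 5 untreated libraries ERN1, DNAJB9, DNAJC3, HYOU1 and XBP1 were not called (limma adjusted p from 0.0820 to 0.563), and 10 members were called in place of 17. Of 33 other ATF4-linked genes 4 rose and 6 fell, with STC2 at 0.82 ± 0.06 and the synthesis enzyme CBS at -0.48 ± 0.16. Of 28 other ER genes 3 rose and 3 fell.

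The difference between the lines in these responses was tested as an interaction. For TNF-α, 7 members had a higher response in TeloHAEC and 0 a lower one, beside 3.26% of all genes higher and 7.05% lower. The largest was ASNS, which rose in TeloHAEC and fell in Eahy926 and differed by 0.81 ± 0.13 (limma adjusted p = 0.000109). XBP1, also called in opposite directions, differed by 0.50 ± 0.07 (limma adjusted p = 1.77e-05). PSAT1 differed by 0.44 ± 0.10, MTHFD2 by 0.38 ± 0.08, PSPH by 0.35 ± 0.09, AARS by 0.24 ± 0.07 and ATF4 by 0.20 ± 0.06. AARS lost its call without any 1 of 6 libraries: control 1, control 3 or TNF-α 3 of Eahy926, and control 1, control 3 or TNF-α 2 of TeloHAEC (limma adjusted p up to 0.0696). Of all called genes 31.6% were higher, or 44.5% after rescaling, which called 9 members, all higher.

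For IL-1β, 8 members had a higher response in TeloHAEC and 1 a lower one, beside 5.96% of all genes higher and 16.5% lower. CEBPB differed by 0.62 ± 0.14 (limma adjusted p = 0.00272), DNAJB9 by 0.47 ± 0.09, ATF3 by 0.47 ± 0.13 and XBP1 by 0.41 ± 0.07. DNAJB11 differed by 0.34 ± 0.07, HYOU1 by 0.27 ± 0.09, MANF by 0.27 ± 0.08 and PPP1R15A by 0.23 ± 0.07. TRIB3 differed by -0.20 ± 0.07, and by 0.13 with all 5 untreated libraries (limma adjusted p = 0.689). CEBPB, DNAJB9, ATF3 and PPP1R15A were not called with all 5 either (limma adjusted p from 0.156 to 0.530), and 5 members were called in place of 9. Rescaling moved the median of all genes in this comparison by 0.106 on the log2 scale, from -0.12 to -0.01. Of all called genes 26.5% were higher before rescaling and 48.4% after it, when 14 members were higher and 0 lower. Without Eahy926 control 2, 12 members were higher and 2 lower. HYOU1 kept its call only without control 2 or IL-1β 1 of Eahy926, or control 3 or IL-1β 1 of TeloHAEC, and lost it without each of the other 8 libraries (limma adjusted p up to 0.0999) and without the filter (0.0593). TRIB3 kept its call only without Eahy926 control 2 or TeloHAEC IL-1β 2 (up to 0.117 without each of the other 10), and lost it without the filter (0.0534) and after rescaling (-0.08, 0.597).

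Across the 6 treatments, 5 ATF4-type genes and 4 ER chaperone genes were called in none: ATF4, DDIT3, TRIB3, PSPH and SLC7A1, and SDF2L1, SYVN1, CRELD2 and MANF. Of all 13542 genes tested 51.5% were called in none. SHMT2 was called higher in 4 treatments, the most of any member. ERN1, HYOU1, DNAJB9, PPP1R15A and MTHFD2 were called higher in 3. The share of all genes called higher in 3 or 4 treatments was not worked out, so nothing is read from these counts. ERN1 and DNAJB9 lost all 3 calls with all 5 untreated libraries, and SHMT2 lost its call in Eahy926 after rescaling. These comparisons share the untreated libraries of each line.

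In the CRISPRi libraries the question was whether loss of a disease-linked gene moved these stress genes. The targets were reduced in 18 of 20 knockdown libraries, to 2.58% to 40.9% of the mean of the 4 non-targeting libraries. MAP2K5 in the library of guide 1 against it was at 105% and NFAT5 in that of guide 2 at 97.1%. The comparisons of these 2 targets average such an unreduced library with the reduced one. Replicates here are the 2 guides of each target, which share that target. All 10 comparisons share the same 4 controls.

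CHAC1 was the one member that rose in any knockdown. After CCM2 knockdown it was at 10.8 and 17.7 TPM, beside 6.17, 5.40, 4.65 and 4.42 TPM in the non-targeting libraries, and both guides lay above all 4 controls. The log2 change was 1.28 ± 0.25 (n = 2 and 4, limma adjusted p = 0.00242). CCM2 itself was at 15.6% and 4.45% of the non-targeting mean in these libraries. Whether CHAC1 follows the level of CCM2 was not tested. Without CCM2 guide 2 the change was 0.94 and the call was lost (limma adjusted p = 0.114). Of 14143 genes 5.66% were higher and 8.37% lower, so the 1 called member of 37 was no more than the background share. Without CCM2 guide 1, 3 members were called, without non-targeting 4, 2 members, and after rescaling 4 members, all higher. Rescaling moved the share of called genes that were higher from 40.3% to 61.6%. The 6 epithelial markers summed to 5402 and 6506 TPM after CCM2 knockdown, beside 1209 to 1393 TPM in the controls. The higher sum came from KRT18, at 4558 and 5374 TPM beside 860 to 934.2 TPM, and KRT19, at 716.0 and 1014 TPM beside 229.2 to 330.9 TPM. KRT8 was within the control range, at 125.9 and 115.4 TPM beside 99.97 to 127.1 TPM. KRT7 was below it, at 1.168 and 1.587 TPM beside 4.53 to 7.503 TPM. The 5 leukocyte markers summed to 130.9 and 172.0 TPM beside 56.48 to 70.01 TPM, with CD14 at 40.55 and 48.17 TPM beside 11.56 to 14.09 TPM and CD68 at 89.87 and 123.7 TPM beside 43.53 to 57.58 TPM. CDH1, EPCAM, PTPRC and CD3E were at or near 0 in all of these libraries, and the part of these markers in the CHAC1 result was not tested.

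The serine and asparagine synthesis genes differed between the CCM2 guides. ASNS was at 10.3 TPM with guide 1 and 29.9 TPM with guide 2, beside 8.88 to 19.3 TPM in the controls. PHGDH was at 12.2 and 19.5 TPM, beside 6.34 to 10.7 TPM, with a log2 difference of 0.74 ± 0.42 that was not called. HERPUD1 was at 64.3 and 83.5 TPM, beside 49.8 to 55.2 TPM, and its difference of 0.47 ± 0.16 was not called (limma adjusted p = 0.0659). Of 34 other ATF4-linked genes 4 rose and 5 fell after CCM2 knockdown. DDIT4 rose by 1.02 ± 0.09, and the tryptophanyl-tRNA synthetase WARS by 0.93 ± 0.23. Of 28 other ER genes 0 rose and 2 fell, the larger fall being that of WFS1 at -1.13 ± 0.29. Of 7 immediate early genes 3 rose and 0 fell, and their part in the result was not tested.

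PDCD10 knockdown gave 1 call, a fall of SYVN1, the ubiquitin ligase of ER degradation, beside 2.50% of all genes higher and 4.55% lower. SYVN1 was at 21.6 and 20.8 TPM, beside 27.7 to 29.4 TPM in the controls, a fall of 0.40 on the log2 scale (SE 0.11, limma adjusted p = 0.0448). PDCD10 was at 12.9% and 40.9% of the control mean. The SYVN1 call was lost without any 1 of the 6 libraries (limma adjusted p from 0.0672 to 0.509), without the filter (0.0696) and after rescaling (0.165). Rescaling moved the median of all genes in this comparison by 0.102, from -0.10 to 0, and relative to that shift SYVN1 was at -0.29. It also moved the share of called genes that were higher from 35.4% to 62.6%. Without PDCD10 guide 2, 3 members were called higher. HYOU1 was at 46.7 and 46.2 TPM, below the controls at 56.9 to 64.9 TPM, with a difference of -0.41 ± 0.12 that was not called (limma adjusted p = 0.0512). The summed epithelial markers were at 6818 and 2631 TPM and the leukocyte markers at 222.5 and 95.71 TPM, above all 4 controls with both guides. KRT18, KRT19 and CD68 were above the controls with both guides. KRT7 was below them, at 2.657 and 1.882 TPM beside 4.53 to 7.503 TPM. CD14 was below them with guide 1 and above them with guide 2, at 5.695 and 16.05 TPM beside 11.56 to 14.09 TPM. The part of these markers in the result was not tested.

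The other 8 knockdowns gave 0 calls among the members. For ITGB1BP1 the background was 3.34% higher and 4.36% lower, and 6 members had an unadjusted limma p under 0.05, beside 3293 of all genes. Of its called genes 43.3% were higher, or 63.0% after rescaling. For MESDC1 the background was 0.552%, with 4 members and 1463 genes at that unadjusted p, and for MAP3K3 0.0566%, with 1 and 1018. For MAP2K5 no gene was called by limma, 0% of 14143, and 1 member and 550 genes had an unadjusted p under 0.05. MEF2A gave 0.00707%, with 3 members and 885 genes, and KLF2 0.0141%, with 2 and 601. NFAT5 gave 0.00707%, with 0 and 273, and CDH5 0.0141%, with 1 and 402. The MAP2K5 and NFAT5 comparisons each include a library in which the target was not reduced, so their lack of calls does not describe a full knockdown. Without MEF2A guide 2, 1 member was called lower.

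Values of both guides against the range of the 4 controls describe the rest, with no test. CHAC1 was at 4.421 to 6.17 TPM in the 4 controls. It was above all of them with both guides for CCM2, PDCD10, ITGB1BP1, MAP3K3, KLF2 and CDH5, at 6.30 TPM or more. The margin was small for CDH5 guide 1, at 6.304 TPM, and KLF2 guide 1, at 6.533 TPM. Other ATF4-type genes also lay outside the control range. PPP1R15A was below all 4 controls with both guides for CCM2, PDCD10, ITGB1BP1 and MESDC1, and above them for MAP3K3 and NFAT5. For MESDC1, 5 of the 17 ATF4-type genes were below and 0 above. All these knockdowns share the controls. The share of all genes above or below was not worked out for MESDC1, MAP3K3, KLF2, NFAT5 and CDH5. For PDCD10, 9 of the 20 ER chaperone genes were below all 4 controls with both guides and 0 above, beside 22.4% of all 14143 genes below and 7.75% above. Among the 9 was HSPA5, at 349 and 302 TPM beside 361 to 449 TPM. For ITGB1BP1 6 were below and 1 above, beside 24.8% and 13.2% of all genes, and for CCM2 2 were below and 5 above, beside 27.0% and 13.3%. For MEF2A 8 were below and 1 above, beside 6.43% and 7.59%. The count of 6 of 20 for ITGB1BP1 is thus near the share of all genes. With no test, nothing is read from the others. The ER chaperone genes of the MESDC1 knockdown differed between guides, with HSPA5 at 429 TPM for guide 1 and 261 TPM for guide 2.

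**Figure D5:**
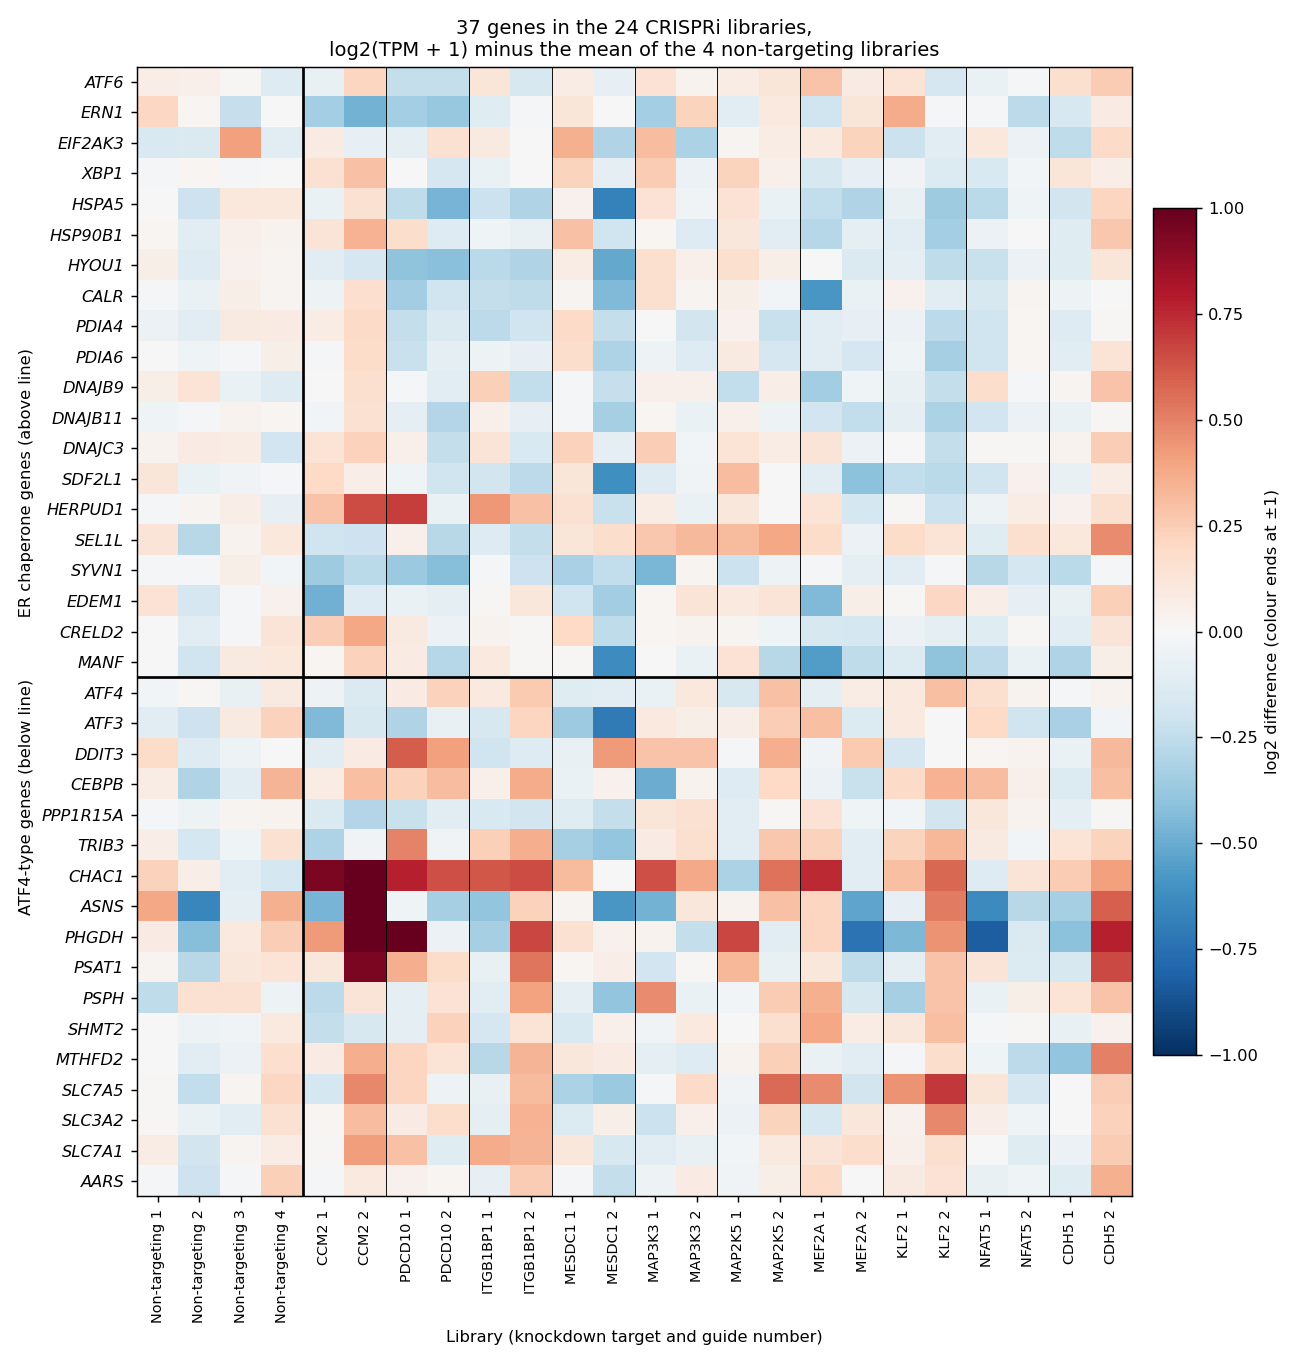
Heat map of the 37 genes in the 24 CRISPRi libraries, as log2(TPM + 1) minus the mean of the 4 non-targeting libraries, with the colour ending at 1 and -1 and the number after each target giving the guide. CHAC1 is above the control mean in both CCM2 libraries, and PHGDH, ASNS and PSAT1 differ between guides of the same target.

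The spread between libraries of a group was larger in the CRISPRi set. The median residual SD of log2 levels in the parental fit was 0.076 for the ER chaperone genes and 0.095 for the ATF4-type genes, beside 0.114 for all genes. In the CRISPRi fit the medians were 0.157 and 0.205, beside 0.195. Members of a subgroup also deviated together there. The mean correlation of residuals between pairs of ER chaperone genes was 0.39 over 190 pairs, and 0.41 over 136 pairs of ATF4-type genes, but 0.07 between the subgroups over 340 pairs. In the parental libraries these means were 0.10, 0.24 and -0.08. The pairs share libraries and the sum to which TPM are scaled.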

How the data were processed

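The deposited table holds TPM by gene symbol for 52 libraries. Per the submitters' processing notes, Bowtie2, kallisto and the genome build hg19 were used, with no versions or roles given there. TPM keep no depth, so the depth of each library is not known and no counting interval is given. Parental columns sum to 100% of the full TPM total, and CRISPRi columns to 96.844% to 97.217% of it, so the blocks were fitted apart. Genes with at least 1 TPM in at least 3 of 24 parental or 2 of 24 CRISPRi libraries were tested, 13542 and 14143 genes, on log2(TPM + 1) with limma 3.58.1 (trend, R 4.3.3) over 8 and 11 groups, two-sided, with Benjamini-Hochberg adjustment per comparison over all genes of the block. There were 20 comparisons. Alternatives were a pseudocount of 0.1, no filter, rescaling by the median of ratios, all 5 untreated libraries per line, a replicate block, and each library left out. The script was tested on simulated data. The 37 members and all lists were chosen with earlier results of these data known. Values are given for at most 5 called members per subgroup and direction with the largest change, and at most 3 other pathway genes per comparison. Over all genes, same-numbered libraries did not deviate together, but summed levels of the members followed the replicate number.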

Additional observations from a re-analysis of the deposited data

Results flagged for a closer look

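Of the 37 members, 2 had a library among the 4 non-targeting controls that lay far from the others, by Dixon's test at the 95% level. EIF2AK3 was at 11.51 TPM in non-targeting library 3 and at 7.44 to 7.723 TPM in the others. SYVN1 was at 29.4 TPM in the same library and at 27.68 to 27.91 TPM in the others. Chance alone marks about 1 in 20 groups.

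The IL-1β response differed between the lines for 9 members in limma's interaction test, as the response in TeloHAEC minus that in Eahy926 on the log2 scale. The differences were 0.412 for XBP1, 0.271 for HYOU1, 0.467 for DNAJB9, 0.337 for DNAJB11, 0.271 for MANF, 0.467 for ATF3, 0.623 for CEBPB, 0.229 for PPP1R15A and -0.195 for TRIB3. For TNF-α there were 7 such members. The differences were 0.50 for XBP1, 0.195 for ATF4, 0.808 for ASNS, 0.439 for PSAT1, 0.352 for PSPH, 0.375 for MTHFD2 and 0.235 for AARS.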

How the results depend on the processing

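Of 81 calls of named members, all 81 held with a pseudocount of 0.1, 73 on the rescaled values (median of ratios) and 74 without the filter. With all 5 untreated libraries 56 of 79 parental calls held, 22 were lost and 1 changed sign, TRIB3 in the line difference for IL-1β, at 0.128. Leaving out 1 library at a time kept 55 of 81 calls in every run. The number of members called ranged, over libraries left out, from 29 to 32 for the untreated lines, 11 to 15 for IL-1β, 7 to 11 for TNF-α and 7 to 11 for VEGF-free medium in TeloHAEC. In Eahy926 it ranged from 0 to 1 for IL-1β and 12 to 21 for TNF-α. It ranged from 4 to 6 for IL-1β against TNF-α, 7 to 14 and 5 to 10 for the line differences in IL-1β and TNF-α, 0 to 3 for CCM2, 0 to 3 for PDCD10 and 0 to 1 for MEF2A. Rescaling gave 8 called members for IL-1β against TNF-α, 14 for the line difference in IL-1β and 4 for CCM2, and dropping the filter gave 0 for PDCD10. With all 5 untreated libraries TNF-α in Eahy926 had 10 called members, IL-1β against TNF-α 2 and the line difference in IL-1β 5. The cause of these shifts was not tested. Where an arm was left with 1 library, that library was assumed to vary like the other groups.

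With the replicate number as a block the counts were 29 for the untreated lines, 19 for IL-1β, 15 for TNF-α and 10 for VEGF-free medium in TeloHAEC, 17 for TNF-α in Eahy926, 6 for IL-1β against TNF-α, and 10 and 9 for the line differences, and all 79 named parental calls held. Over all genes tested, the deviations of same-numbered libraries had a mean correlation of -0.00078 for TeloHAEC and 0.0125 for Eahy926. Each line had 18 pairs, and 0 of them exceeded 0.1. Summed levels of the members did follow the replicate number. Summed ER chaperone levels were highest in library 3 of every group fitted, as at 6792, 6834 and 7067 TPM in the TeloHAEC controls. A sum is set mostly by the most abundant genes. The mean log2 level of the ER chaperone genes did not follow the number. With IL-1β in TeloHAEC it was lowest in library 3, at 7.095, 7.086 and 7.082. With TNF-α in Eahy926 it was highest in library 1, at 6.572, 6.555 and 6.57. Mean ATF4-type levels were lowest in library 3 of every group but the Eahy926 controls. The source of this was not tested. TPM hold no depth, so what depth limits could not be measured.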

Other observations

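The untreated libraries numbered 0.1 and 0.2 belong to no comparison above, apart from the runs with all 5 controls. The median log2 difference of the ER chaperone genes from the other untreated libraries was 0.26 in Eahy926 and 0.11 in TeloHAEC. In TeloHAEC the differences of the ATF4-type genes reached -1.54, for CEBPB, and those of the ER chaperone genes ran from -0.49 for CRELD2 to 0.79 for DNAJB9. TRIB3 was at 104.0 and 100.7 TPM there, below 162 to 169.7 TPM in the other controls. In Eahy926 ATF3 was at 9.11 and 8.35 TPM, below 15.9 to 19.4 TPM, and DDIT3 at 36.2 and 35.6 TPM, above 16.96 to 26.7 TPM.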
